A study of Mus musculus with 6 samples.

Results

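The genes described here are 41 genes of intraflagellar transport and of the BBSome, out of 29493 genes in a count table from mouse HT22 cells. They were chosen by name, as the rows of the table whose symbol is on a list of intraflagellar transport (IFT) subunits, their motors, BBSome subunits and assembly factors, and ciliary membrane GTPases with the phosphatase Inpp5e. The list was drawn up with the Dox against vehicle values of these libraries known, so the counts of changed members below are descriptions of the list and nothing is read from their size. All 41 were in the table and all 41 passed the filter on low counts, which left 18067 genes for the test.

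HT22 is a mouse neuronal cell line of hippocampal origin, and the cells of every library carried the same stable transgene for V5-tagged KLF13, a zinc-finger transcription factor, under control of the tet repressor (genotype HT22-TR/TO-V5Klf13-1). Cells received doxycycline at 1 µg/ml (Dox, n = 3) or vehicle (n = 3), and total RNA was sequenced after 8 hours. The labels give neither whether the line is 1 clone nor whether the libraries of a group stem from different cultures, so every p-value reflects the scatter of these libraries and that scatter may be technical. None of the 6 libraries comes from doxycycline-treated cells that lack the transgene, so effects of the drug and of KLF13 cannot be told apart.

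A primary cilium is built and kept up by trains of the IFT complexes that move along its microtubules. Kinesin-2 carries IFT-B trains towards the tip, dynein-2 brings them back together with IFT-A, and the BBSome rides on the trains as an adaptor for membrane proteins. Small GTPases of the ARL family recruit the BBSome or release lipid-modified cargo inside the cilium, and in neurons the primary cilium is known as a site of G protein-coupled receptor signalling.

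Total counts per library ran from 38566798 to 52930384. Klf13 (chr7:63886351-63938915, minus strand, GRCm38), the induced gene, had 37.0, 36.1 and 39.1 CPM (counts scaled to a common effective library size) in the 3 vehicle libraries and 205, 188 and 184 CPM in the 3 Dox libraries. Its log2 fold change was 2.36 ± 0.054 (SE), a 5.13-fold rise. Of 12 neuronal marker genes, 7 were in the table and 3 of these (Map2, Syp and Slc17a7) stayed under 1 CPM in every library, while Rbfox3, Snap25, Gad1, Neurod1 and Nefl had no row. The 7, of which 1 was called higher and 3 lower, summed to 85.5 to 86.4 CPM with vehicle and 26.3 to 28.4 CPM with Dox. The 8 fibroblast markers, of which only Lum stayed under 1 CPM, summed to 12126 to 12835 CPM with vehicle and 9709 to 10295 CPM with Dox, with 6 called lower. Of 5 microglial markers 4 stayed under 1 CPM, and the sum, mostly Tmem119, was 29.9 to 32.1 CPM with vehicle and 19.9 to 20.8 CPM with Dox. All 6 libraries come from 1 cell line, so these sums are levels in that line and not shares of cell types. In every library the fibroblast sum was above the neuronal sum. In bulk RNA, fewer cells that express a gene and less RNA per cell cannot be told apart. The part of these shifts in the members' values was not tested.

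Most IFT genes were higher with Dox, 3 of the 4 membrane enzymes were lower, and genes of the motors and of the BBSome went both ways. Of the 41 members, 22 were higher and 13 lower at an adjusted p under 0.05 (edgeR quasi-likelihood test over all tested genes, Benjamini-Hochberg), and 6 were not called. Over all 18067 genes tested the same rule called 54.7%, with 25.9% higher and 28.8% lower. The groups did not overlap for 36 of the 41 members, and for 64% of all tested genes. The members' log2 fold changes ran from -1.07 (Inpp5e) to 1.32 (Bbs1) with a median of 0.22, beside a median of 0.018 over all tested genes. A 2-fold difference was reached by Bbs1, Bbs5, Lztfl1 and Ift80 among the higher genes and by Inpp5e among the lower ones. Over all 18067 genes tested, 314 called genes were at least 2-fold higher and 1357 at least 2-fold lower. In the annotation, 8 members share at least 50 exonic bases with another gene (Ift57, Ift88, Cluap1, Bbs4, Mkks, Lztfl1, Arl6 and Inpp5e), so part of their reads may belong to the neighbour. The strand setting of the counting is not known, and for Cluap1 and Mkks the longest overlap is with a gene on the same strand. With upper-quartile scaling in place of TMM, which moved the median of all genes to 0.11, 23 members were higher and 10 lower, and over all genes the split went from 4687 higher and 5203 lower to 6246 higher and 4457 lower.

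**Figure D1:**
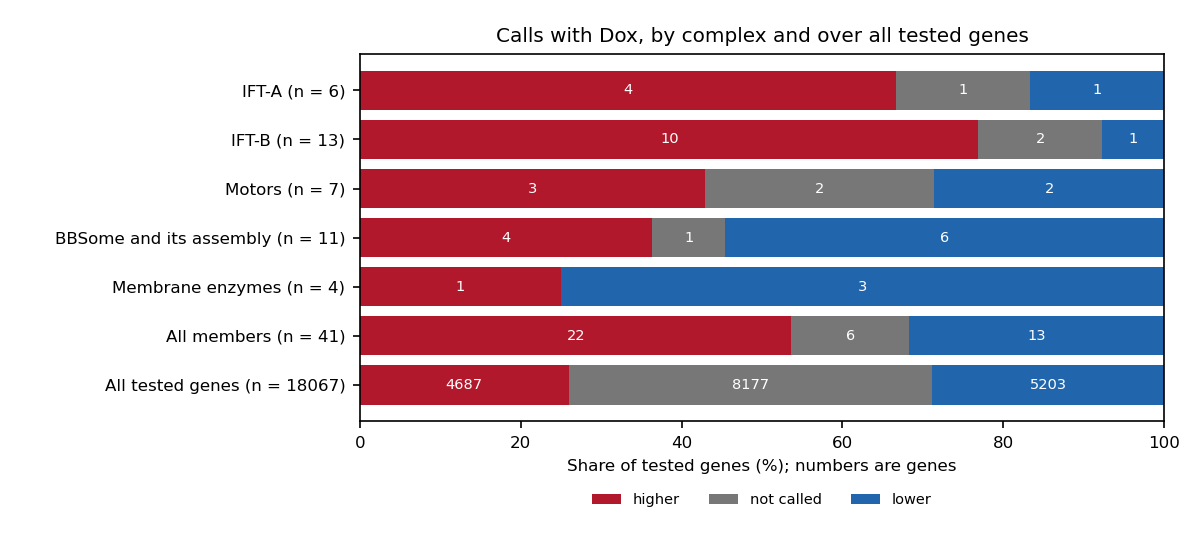
Share of genes called higher, not called and called lower with Dox at an adjusted p under 0.05, as a percent of the genes tested in each list, with the number of genes printed in each segment. IFT-B has 10 higher and 1 lower of 13, BBSome and assembly genes have 4 higher and 6 lower of 11, and the bottom bar gives all 18067 tested genes.

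Promoter sequence was examined for the motifs of the factors concerned. RefSeq windows (GRCm38.p6) from 250 bases before to 50 bases after a start site were matched for 37 members, and Ift80, Ift81, Ift122 and Dync2li1 had none. Arl6 and Inpp5e had 2 windows each, and a gene with a motif in any of its windows was counted. The motifs searched, each on both strands, were the GC box GGGCGG and the CACCC box CACCC, which KLF and SP proteins bind, and GTTGCC, the half-site of RFX factors, which are known regulators of ciliary genes. Matches of the GC box and the CACCC box can share bases. A match is a description of the letters and not evidence of a bound site.

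The RFX half-site was in the windows of 14 of 37 members (37.8%), beside 12.5% of all 32851 promoter windows and 14.6% of the 10219 tested genes with a window. It was in 9 of the 19 higher members (Wdr35, Ift27, Ift57, Ift88, Ift172, Traf3ip1, Bbs1, Bbs5 and Lztfl1), in 2 of the 13 lower ones (Kif3a and Arl13b), and in 3 of the 5 that were not called (Ift140, Dync2h1 and Bbs7). Across the tested genes with a window it was in 14.9% of higher genes, 14.1% of lower genes and 14.8% of those not called. The 30-base stretches that follow hold a half-site, in capitals, of the 4 higher members with the largest fold changes among the 9 and of both lower members, with the position of the half-site counted from the start site. Each reads 5′ to 3′ on the strand that shows GTTGCC.
Bbs1 (chr19:4906609-4906638, minus strand, position 2): atggctgagctgGTTGCCaaggcgacgcct
Lztfl1 (chr9:123717772-123717801, minus strand, position -164): ggaaatttctctGTTGCCattGGCAACggc
Bbs5 (chr2:69647191-69647220, plus strand, position 43): gatgtcgtgacaaagccggcgcGTTGCCtt
Wdr35 (chr12:8974021-8974050, plus strand, position 41): gatgcgactgggcggcggtgGTTGCCaggc
Kif3a (chr11:53567259-53567288, plus strand, position -98): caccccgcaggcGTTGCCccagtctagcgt
Arl13b (chr16:62847204-62847233, minus strand, position -181): acagacgctccaGTTGCCtagttaccagag
The Lztfl1 stretch holds the half-site and its reverse complement as an inverted repeat, at positions -164 and -155.

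The GC box was in 25 of 37 members (67.6%) and in 66.4% of tested genes. It was in 10 of 19 higher members (52.6%) and 11 of 13 lower members (84.6%). Among the tested genes with a window, it was in 58% of 3095 higher and 80.2% of 3499 lower genes. Of the 5 members not called 4 held it, beside 60.2% of tested genes not called. The CACCC box was in 22 of 37 members (59.5%) and in 65.9% of tested genes. For that motif the members did not follow the order of the tested genes with a window, a difference that was not tested. The motif was in 15 of 19 higher members, 7 of 13 lower members and 0 of the 5 not called. Among the tested genes with a window it was in 59% of higher, 72.3% of lower and 65.7% of genes not called. Median GC content of the windows was 57.7% for the higher members, 58.3% for the lower members and 60.7% for tested genes. The 180 bases before the start site are printed for Bbs5, a member that rose, and for Inpp5e and Arl13b, which fell. These windows hold no annotated exon, and capitals mark the GC box and the CACCC box on either strand.
Bbs5 (chr2:69646991-69647170, plus strand): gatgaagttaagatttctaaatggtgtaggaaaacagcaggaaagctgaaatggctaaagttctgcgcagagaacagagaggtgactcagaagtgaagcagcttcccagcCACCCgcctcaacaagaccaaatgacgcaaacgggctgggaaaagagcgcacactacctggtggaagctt
Inpp5e (chr2:26409220-26409399, minus strand): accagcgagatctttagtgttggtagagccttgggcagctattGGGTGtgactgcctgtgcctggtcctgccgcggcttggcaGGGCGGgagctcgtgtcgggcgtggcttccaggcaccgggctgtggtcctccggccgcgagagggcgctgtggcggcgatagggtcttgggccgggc
Arl13b (chr16:62847041-62847220, minus strand): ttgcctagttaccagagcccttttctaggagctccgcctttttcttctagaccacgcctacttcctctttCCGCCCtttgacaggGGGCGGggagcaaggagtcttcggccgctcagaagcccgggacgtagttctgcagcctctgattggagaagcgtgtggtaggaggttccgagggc
The printed Bbs5 bases hold 1 CACCC box and no GC box, those of Inpp5e 1 of each, and those of Arl13b GC boxes only. The other Inpp5e window, which is not printed, holds 3 GC boxes and 2 CACCC boxes, and an annotated Inpp5e exon reaches into it.

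IFT-A, the complex of retrograde trains that also brings membrane receptors into the cilium, had 4 of 6 members higher, 1 lower and 1 not called, with a median log2 fold change of 0.47. Wdr35, a peripheral subunit (chr12:8973892-9028847, plus strand), had 26.0, 28.8 and 27.2 CPM with vehicle and 49.2, 50.2 and 48.1 CPM with Dox. Every Dox library lay above every vehicle library, and the log2 fold change was 0.85 ± 0.048 (SE). Wdr19, a core subunit, had 9.49, 9.99 and 9.24 CPM with vehicle and 16.3, 16.9 and 15.2 CPM with Dox, a log2 fold change of 0.76 ± 0.06. Ift43, the smallest IFT-A subunit, had 9.01, 11.6 and 10.4 CPM with vehicle and 18.2, 16.5 and 16.3 CPM with Dox, a log2 fold change of 0.71 ± 0.1. All 3 genes were 1.64-fold to 1.8-fold higher, with no overlap between the groups.

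The other core subunits of IFT-A had smaller fold changes. Ift122 had 14.4, 14.8 and 13.3 CPM with vehicle and 17.5, 16.4 and 15.5 CPM with Dox, a log2 fold change of 0.22 ± 0.066 with an adjusted p of 0.029. Its groups did not overlap, and the call was lost without Vehicle 1 (adjusted p = 0.06), Vehicle 3 (0.093), Dox 1 (0.076) or Dox 2 (0.061). Ift140 had 24.6, 24.7 and 25.2 CPM with vehicle and 25.6, 26.8 and 26.7 CPM with Dox. Its groups did not overlap either, but its log2 fold change of 0.084 ± 0.039 was not called (adjusted p = 0.11). Ift140 was called higher with upper-quartile scaling (log2 fold change 0.18, adjusted p = 0.0082), a filter at 5 CPM (0.10, adjusted p = 0.045), a GC offset (0.14, adjusted p = 0.024) and a length offset (0.33, adjusted p = 0.00076). Ttc21b, a peripheral subunit, was the only IFT-A member called lower. It had 46.4, 47.3 and 44.5 CPM with vehicle and 35, 35.2 and 35.4 CPM with Dox, and fell by 0.39 on the log2 scale (SE 0.035).

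**Figure D2:**
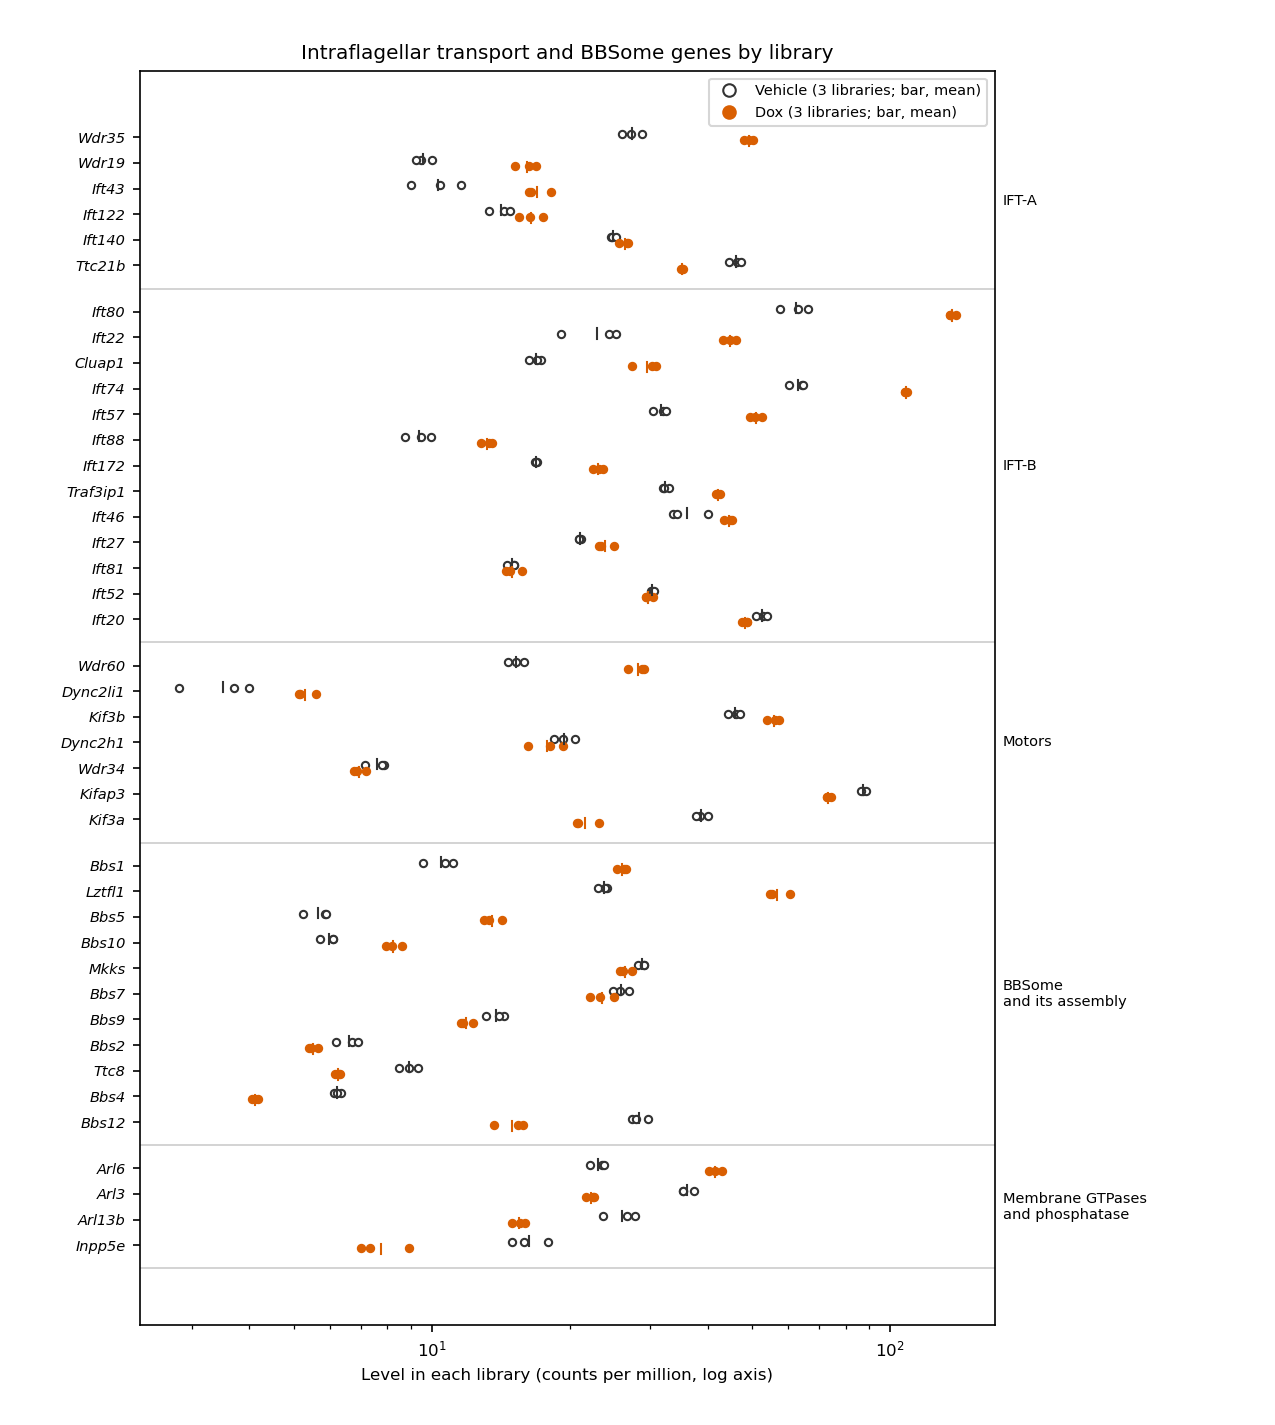
Level of each of the 41 members in every library, in CPM on a log axis, with open points for the 3 vehicle libraries, filled points for the 3 Dox libraries and a short vertical bar at each group's mean. Points of the groups are apart for 36 members, and the means of Bbs1, Lztfl1, Bbs5 and Ift80 with Dox lie farthest to the right of their vehicle means, as that of Inpp5e lies farthest to the left.

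IFT-B, the complex of anterograde trains, had 10 of 13 members higher, 1 lower and 2 not called, with a median log2 fold change of 0.45. The 6 peripheral subunits, which contact kinesin-2, had a median of 0.57 and the 7 core subunits a median of 0.31. Ift80, a peripheral subunit (chr3:68892499-69004570, minus strand), had 57.5, 66.1 and 63.1 CPM with vehicle and 135, 139 and 135 CPM with Dox. The lowest Dox library was above the highest vehicle library by more than the whole vehicle range, and the log2 fold change was 1.13 ± 0.053, a 2.19-fold rise. Cluap1, another peripheral subunit, had 17.3, 17.0 and 16.3 CPM with vehicle and 30.2, 27.3 and 30.9 CPM with Dox, a log2 fold change of 0.80 ± 0.06. Ift57, which forms a dimer with Cluap1, had 30.4, 31.9 and 32.5 CPM with vehicle and 50.8, 49.4 and 52.5 CPM with Dox, a log2 fold change of 0.69 ± 0.041. The groups of both genes were apart.

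The other peripheral subunits differed in direction. Ift172, the largest IFT-B subunit, had 17.0, 16.8 and 16.9 CPM with vehicle and 23.2, 23.6 and 22.5 CPM with Dox, a log2 fold change of 0.45 ± 0.041. Traf3ip1, a microtubule-binding subunit, had 32.0, 32.9 and 32.1 CPM with vehicle and 42.0, 41.6 and 42.6 CPM with Dox, a log2 fold change of 0.38 ± 0.032. Both were higher in every Dox library. Ift20, which also works at the Golgi apparatus, was the only IFT-B member called lower. It had 51.0, 52.7 and 54.0 CPM with vehicle and 48.8, 47.4 and 48.8 CPM with Dox, and its log2 fold change was -0.12 ± 0.034 (adjusted p = 0.023). That call was lost without Vehicle 2 (adjusted p = 0.053), Vehicle 3 (0.071), Dox 1 (0.06) or Dox 2 (0.081), and with upper-quartile scaling (0.54).

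Among the core subunits of IFT-B, Ift22, a small GTPase-like subunit, had the largest difference. It had 19.1, 24.4 and 25.2 CPM with vehicle and 46.0, 43.2 and 44.7 CPM with Dox, a log2 fold change of 0.96 ± 0.11, with Vehicle 1 the lowest library. Ift74, which binds tubulin together with Ift81, had 60.1, 64.3 and 64.5 CPM with vehicle and 108, 108 and 109 CPM with Dox, a log2 fold change of 0.78 ± 0.035. Its partner Ift81 had 15.1, 14.6 and 15.1 CPM with vehicle and 14.8, 14.5 and 15.7 CPM with Dox, and its groups overlapped (log2 fold change 0.0084 ± 0.049, adjusted p = 0.9). The genes of the tubulin-binding pair thus had unequal values, with Ift74 called higher and Ift81 not called, and the difference between them was not tested.

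Ift88, a central scaffold subunit whose loss abolishes cilia, had 8.75, 9.94 and 9.45 CPM with vehicle and 13.5, 13.3 and 12.8 CPM with Dox, a log2 fold change of 0.49 ± 0.062. Ift46 had 40.1, 33.6 and 34.3 CPM with vehicle and 45.2, 43.4 and 44.7 CPM with Dox, a log2 fold change of 0.31 ± 0.072. Ift27, a small GTPase that links IFT-B to the BBSome, had 21.2, 21 and 21 CPM with vehicle and 25.0, 23.2 and 23.4 CPM with Dox, a log2 fold change of 0.18 ± 0.045. The groups did not overlap for any of these 3 genes. The calls of Ift46 (adjusted p = 0.011) and Ift27 (0.014) were lost at an adjusted p under 0.01 and with a test against a 1.2-fold change. Ift52, a core scaffold subunit, had 30.1, 30.2 and 30.6 CPM with vehicle and 29.4, 29.3 and 30.4 CPM with Dox. Its groups overlapped and its log2 fold change was -0.028 ± 0.035 (adjusted p = 0.53).

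**Figure D3:**
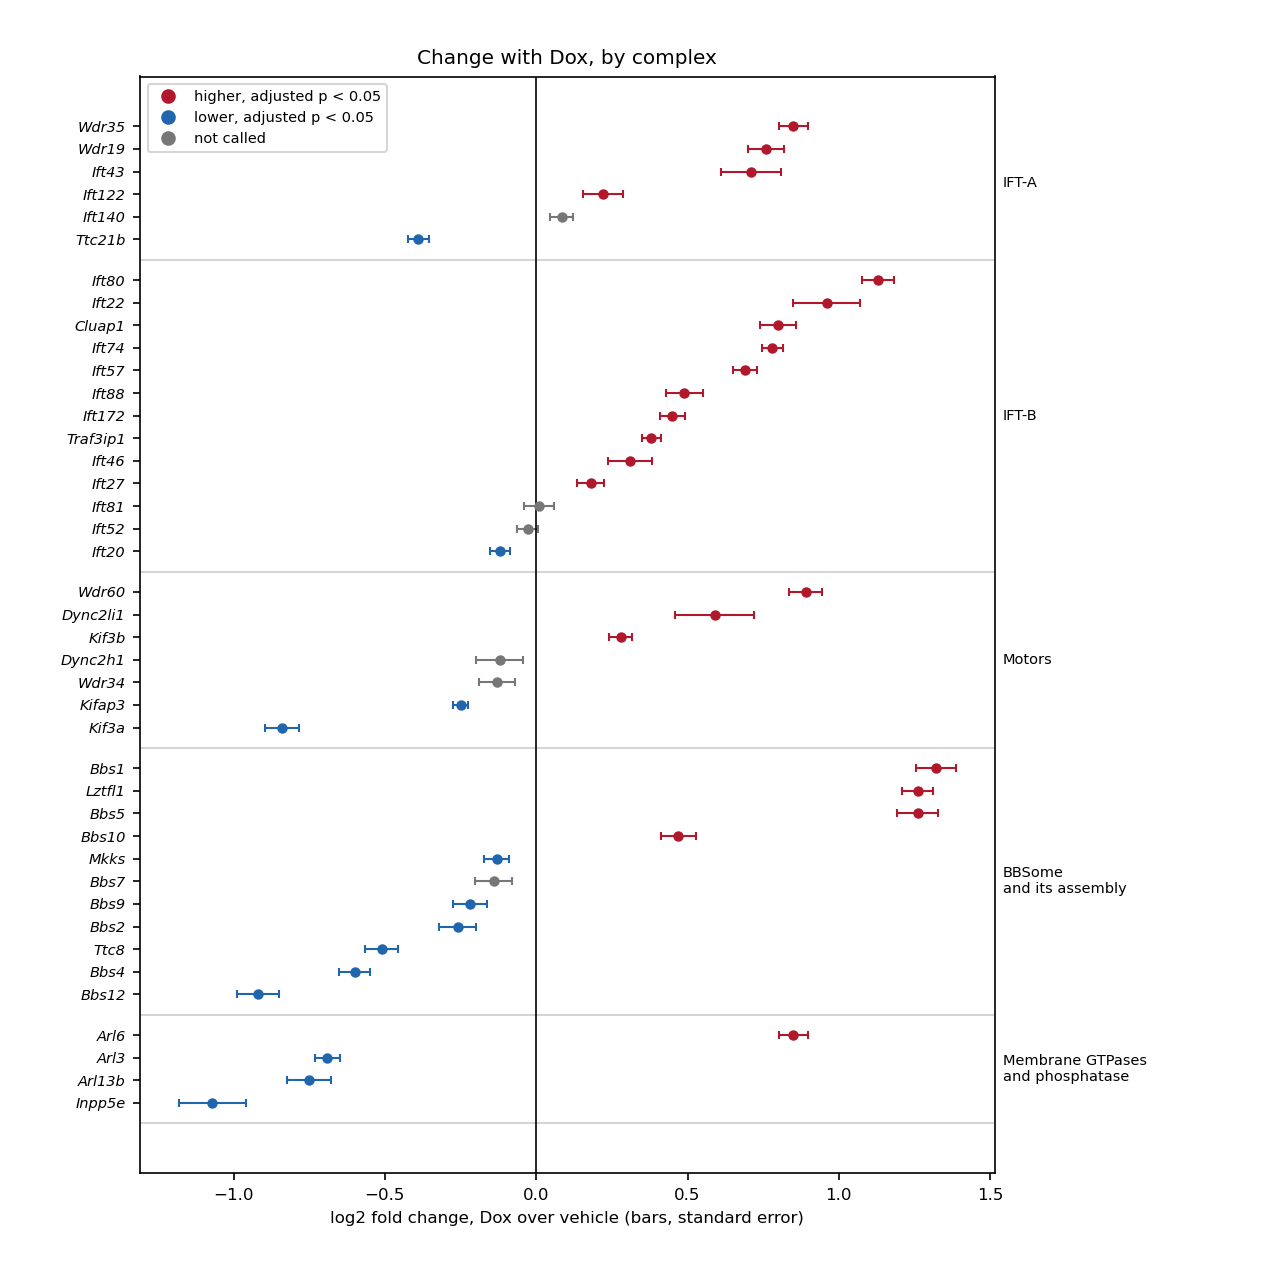
Log2 fold change of each member, Dox over vehicle, with standard errors as bars, grouped by complex and coloured by call at an adjusted p under 0.05. IFT-A and IFT-B points lie mostly to the right of 0, with Ttc21b and Ift20 called lower, and Bbs12, Kif3a and Inpp5e lie farthest to the left.

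The motor genes were split, with 3 of 7 higher, 2 lower and 2 not called, and a median log2 fold change of -0.12. Kinesin-2 is a trimer, and its 3 genes did not change in 1 direction. Kif3a, a motor subunit (chr11:53567379-53601967, plus strand), had 40, 38.4 and 37.8 CPM with vehicle and 20.7, 23.2 and 20.8 CPM with Dox, and fell by 0.84 on the log2 scale (SE 0.057). Its partner motor subunit Kif3b had 46.1, 47.0 and 44.3 CPM with vehicle and 53.9, 57.2 and 56.1 CPM with Dox, a log2 fold change of 0.28 ± 0.038. Kifap3, the cargo-binding subunit, had 87.3, 88.6 and 86.2 CPM with vehicle and 72.8, 72.9 and 74.2 CPM with Dox, a log2 fold change of -0.25 ± 0.026. The groups were apart for all 3 genes. With a test against a 1.2-fold change, the calls of Kif3b (adjusted p = 0.28) and Kifap3 (0.65) were lost. Per kilobase of transcript, Kif3a was at 12.2 and Kif3b at 8.13 CPM per kilobase with vehicle, and at 6.82 and 9.89 with Dox, so the order of the motor subunits was not the same in the groups.

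Dynein-2 had 2 genes higher and 2 not called. Wdr60, an intermediate chain, had 15.9, 15.3 and 14.7 CPM with vehicle and 29.1, 28.8 and 26.8 CPM with Dox, a log2 fold change of 0.89 ± 0.054. The other intermediate chain, Wdr34, had 7.87, 7.80 and 7.16 CPM with vehicle and 6.88, 6.77 and 7.18 CPM with Dox, and its overlapping groups gave a log2 fold change of -0.13 ± 0.06 (adjusted p = 0.11). The dynein-2 intermediate chains therefore differed in call, and the difference between them was not tested. With a GC offset Wdr34 was called higher as well (log2 fold change 0.18, adjusted p = 0.045). Dync2li1, the light intermediate chain, had 3.71, 2.81 and 3.99 CPM with vehicle and 5.17, 5.59 and 5.14 CPM with Dox, a log2 fold change of 0.59 ± 0.13. Its lowest count, 117, was the lowest of any member, and the largest coefficient of variation within a group, 17.6%, was its own, beside a median of 3.4% over members. Dync2h1, the heavy chain that holds the motor domain, had 18.5, 20.5 and 19.3 CPM with vehicle and 18.1, 19.3 and 16.2 CPM with Dox (log2 fold change -0.12 ± 0.078, adjusted p = 0.24).

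The BBSome and its assembly factors had 4 of 11 members higher, 6 lower and 1 not called, with a median log2 fold change of -0.14, and held the 3 members with the highest fold changes. The higher members stayed at 4 in the settings that follow, while the lower ones numbered 4 with upper-quartile scaling, the length offset, without Dox 1 or without Dox 2, and 3 with DESeq2's Wald test, at an adjusted p under 0.01 or against a 1.2-fold change. Bbs1, the subunit that contacts the GTPase Arl6 (chr19:4886878-4906628, minus strand), had 10.7, 11.1 and 9.55 CPM with vehicle and 26.5, 26.3 and 25.4 CPM with Dox. All Dox libraries were above 25 CPM and all vehicle libraries under 12 CPM, a log2 fold change of 1.32 ± 0.066 (2.5-fold). Bbs5, the subunit with lipid-binding domains (chr2:69647171-69667571, plus strand), had 5.86, 5.24 and 5.88 CPM with vehicle and 14.2, 13.0 and 13.3 CPM with Dox, a log2 fold change of 1.26 ± 0.068. Lztfl1, a cytoplasmic regulator that limits entry of the BBSome into the cilium (chr9:123694416-123717697, minus strand), had 24.1, 23.1 and 23.9 CPM with vehicle and 55.2, 60.4 and 54.7 CPM with Dox, a log2 fold change of 1.26 ± 0.05. Lztfl1 shares 490 exonic bases with Gm17200 on the opposite strand.

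The other BBSome subunits did not rise with Bbs1 and Bbs5. Bbs4 had 6.12, 6.34 and 6.21 CPM with vehicle and 4.11, 4.05 and 4.17 CPM with Dox, and fell by 0.60 on the log2 scale (SE 0.05). Ttc8, which is also a BBSome subunit, had 8.48, 9.32 and 8.91 CPM with vehicle and 6.27, 6.32 and 6.15 CPM with Dox, and fell by 0.51 (SE 0.055). Both genes were lower in every Dox library. Bbs2 had 6.71, 6.92 and 6.19 CPM with vehicle and 5.64, 5.45 and 5.39 CPM with Dox, a log2 fold change of -0.26 ± 0.062 (adjusted p = 0.011). The Bbs2 call was lost with DESeq2's Wald test, at an adjusted p under 0.01 and against a 1.2-fold change. Bbs9 had 14.4, 14.0 and 13.1 CPM with vehicle and 11.6, 11.7 and 12.3 CPM with Dox, a log2 fold change of -0.22 ± 0.056 (adjusted p = 0.016), and its call was lost without Dox 1 (0.056) or Dox 2 (0.055). Bbs2, Bbs7 and Bbs9 form the core on which the complex is assembled. Bbs7 had 27.0, 25.7 and 24.8 CPM with vehicle and 22.1, 25.0 and 23.3 CPM with Dox, and its groups overlapped (log2 fold change -0.14 ± 0.061, adjusted p = 0.1).

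The chaperonin-like proteins Mkks, Bbs10 and Bbs12 help to assemble that core, and their genes differed in direction. Bbs12 (chr3:37312554-37321453, plus strand) had 27.3, 29.6 and 27.9 CPM with vehicle and 13.7, 15.8 and 15.4 CPM with Dox, and fell by 0.92 on the log2 scale (SE 0.069). Bbs10 had 6.10, 6.10 and 5.71 CPM with vehicle and 7.96, 8.59 and 8.17 CPM with Dox, a log2 fold change of 0.47 ± 0.057. Bbs10 was thus higher and Bbs12 lower in every Dox library. Mkks had 28.2, 29 and 29.1 CPM with vehicle and 25.7, 26.1 and 27.3 CPM with Dox, a log2 fold change of -0.13 ± 0.041 (adjusted p = 0.037). The Mkks call was lost without Vehicle 2 (0.079), Vehicle 3 (0.1), Dox 1 (0.12) or Dox 2 (0.1), and the gene shares up to 944 exonic bases with Slx4ip and 2 clone-named gene models.

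Of the membrane enzymes, 1 was higher and 3 were lower, with a median log2 fold change of -0.72. Arl6, the GTPase that recruits the BBSome to membranes, had 22.1, 23.5 and 23.7 CPM with vehicle and 43.0, 40.2 and 41.4 CPM with Dox, a log2 fold change of 0.85 ± 0.047. It was the only gene of the 4 that rose, as did Bbs1, whose product binds it. Inpp5e, a phosphoinositide phosphatase of the ciliary membrane (chr2:26396249-26409203, minus strand), had 15.9, 17.9 and 15.0 CPM with vehicle and 7, 8.90 and 7.35 CPM with Dox, and fell by 1.07 on the log2 scale (SE 0.11). The highest Dox library was well under the lowest vehicle library. Inpp5e shares 874 exonic bases with Pmpca on the opposite strand, and the part of shared reads in its fall was not tested. Arl13b, which activates Arl3 and is needed to keep Inpp5e in the cilium, had 23.6, 27.8 and 26.7 CPM with vehicle and 15.6, 16 and 15.0 CPM with Dox, and fell by 0.75 (SE 0.072). Arl3, the GTPase that releases lipid-modified cargo, had 37.4, 35.3 and 35.4 CPM with vehicle and 21.7, 22.5 and 22.6 CPM with Dox, and fell by 0.69 (SE 0.042). The genes for Arl13b, Arl3 and Inpp5e, which act in 1 delivery route, were all lower, by 1.62-fold to 2.1-fold.

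Levels were compared between genes per kilobase of the longest coding transcript (GENCODE M21). With vehicle, members ran from 1.36 CPM per kilobase (Dync2h1) to 46.1 (Ift20), with a median of 7.38, and 21 of 41 were above the median of tested genes, 7.11. With Dox they ran from 1.25 (Dync2h1) to 50.6 (Ift74), with a median of 7.87. By complex, median levels with vehicle and Dox were 4.83 and 5.93 for IFT-A, 9.49 and 14.5 for IFT-B, 4.2 and 6.82 for the motors, 3.85 and 4.66 for the BBSome and its assembly factors, and 10.5 and 13.3 for the membrane enzymes. The genes in the middle of a list are not the same in both groups, so the median level of the membrane enzymes, the motors and the BBSome list was higher with Dox although their median log2 fold changes were below 0. Bbs1 had the lowest level of the BBSome list with vehicle, 1.87, and was at 4.66 with Dox. Ift20 and Ift74 changed places as the highest IFT-B gene, with Ift20 at 46.1 and then 42.3, and Ift74 at 29.4 and then 50.6. These levels rest on 1 transcript per gene, and a switch between transcripts would move them.

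**Figure D4:**
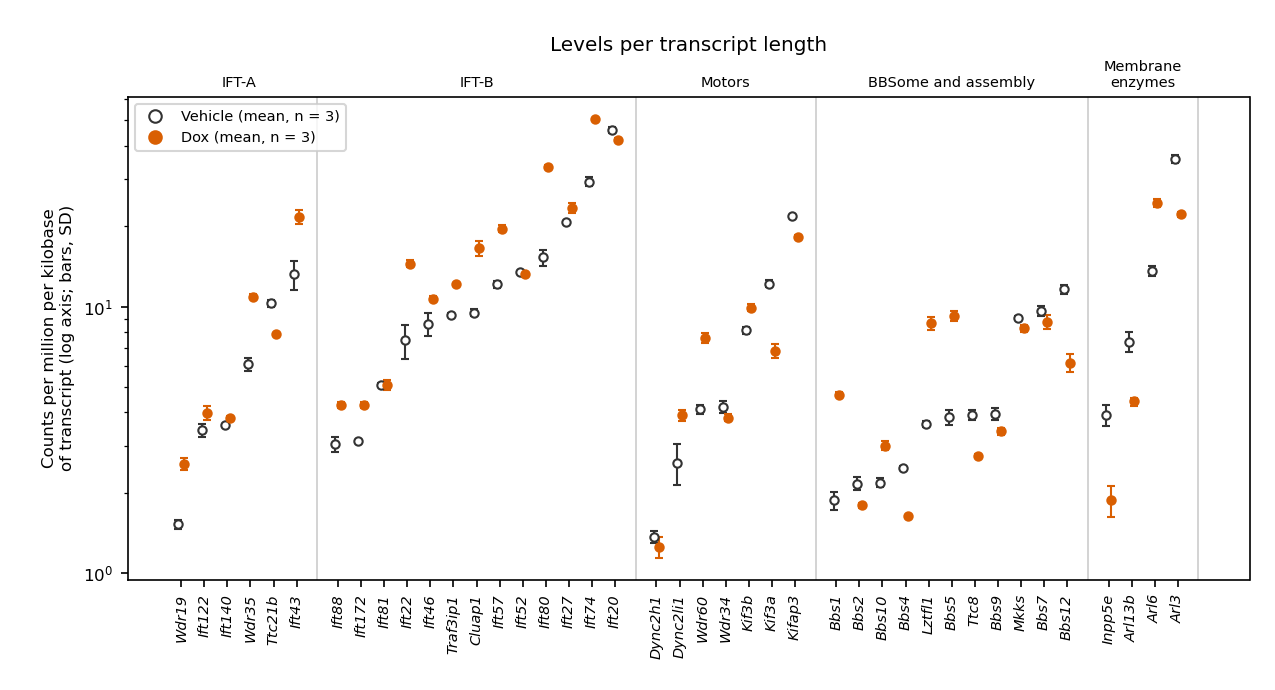
Mean level of each member per kilobase of its longest coding transcript, on a log axis, with open points for vehicle and filled points for Dox and SD bars over 3 libraries. Ift20 is highest with vehicle at 46.1, Ift74 is highest with Dox at 50.6, and Dync2h1 is lowest in both groups.

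Subunits of the same complexes that are not on the member list were read from the same fit. Of 15 listed, 13 were tested, 5 were higher, 6 lower and 2 not called, with a median log2 fold change of -0.14. Ttc26, an IFT-B subunit, had 12.5, 13.4 and 12.6 CPM with vehicle and 24.3, 26.0 and 26.7 CPM with Dox, a log2 fold change of 1.00 ± 0.055 (adjusted p = 1.7e-05). Ttc30a1, an IFT-B subunit whose near-identical paralogs Ttc30a2 and Ttc30b can share its reads, had 4.74, 4.95 and 5.19 CPM with vehicle and 8.69, 8.63 and 8.73 CPM with Dox, a log2 fold change of 0.81 ± 0.054 (adjusted p = 3.6e-05). Hspb11, the IFT-B partner of Ift27, had 22.8, 21.7 and 23.4 CPM with vehicle and 12.9, 13.5 and 13.8 CPM with Dox, a log2 fold change of -0.75 ± 0.051 (adjusted p = 3.7e-05). Hspb11 and Ift27 were called in opposite directions, but the Ift27 call was lost at an adjusted p under 0.01 and against a 1.2-fold change. Dynlt3, a dynein light chain that is not particular to dynein-2, had 90.1, 93.1 and 90.3 CPM with vehicle and 44.7, 45.1 and 48.1 CPM with Dox, a log2 fold change of -0.99 ± 0.038 (adjusted p = 4.7e-06).

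Among 18 tested genes of ciliary membrane trafficking, 5 were higher, 10 lower and 3 not called, with a median log2 fold change of -0.23. Unc119 and Pde6d encode carriers from which Arl3 releases lipid-modified proteins. Unc119 had 7.40, 6.75 and 6.31 CPM with vehicle and 0.752, 0.75 and 0.559 CPM with Dox, a log2 fold change of -3.31 ± 0.13 (9.89-fold lower, adjusted p = 5e-06). Pde6d, which carries Inpp5e, had 34.5, 31.4 and 32.2 CPM with vehicle and 13.8, 12.9 and 12.9 CPM with Dox, a log2 fold change of -1.31 ± 0.055 (adjusted p = 6.4e-06). Unc119b, the paralog of Unc119 named after its values were seen, had 104, 106 and 105 CPM with vehicle and 104, 101 and 103 CPM with Dox, and was not called (log2 fold change -0.03 ± 0.024, adjusted p = 0.35). With the GC and length offsets Unc119b was called higher (log2 fold changes 0.17 and 0.11, adjusted p = 0.0018 and 0.0096). Gpr161, a ciliary receptor that restrains Hedgehog signalling, had 47.8, 48.4 and 50.3 CPM with vehicle and 12.9, 13.2 and 11.8 CPM with Dox, a log2 fold change of -1.95 ± 0.055 (adjusted p = 1.9e-06). Rab8b, a GTPase of vesicle delivery, had 25.1, 27.7 and 28.4 CPM with vehicle and 9.91, 9.10 and 9.89 CPM with Dox, a log2 fold change of -1.49 ± 0.067 (adjusted p = 7.6e-06).

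**Figure D5:**
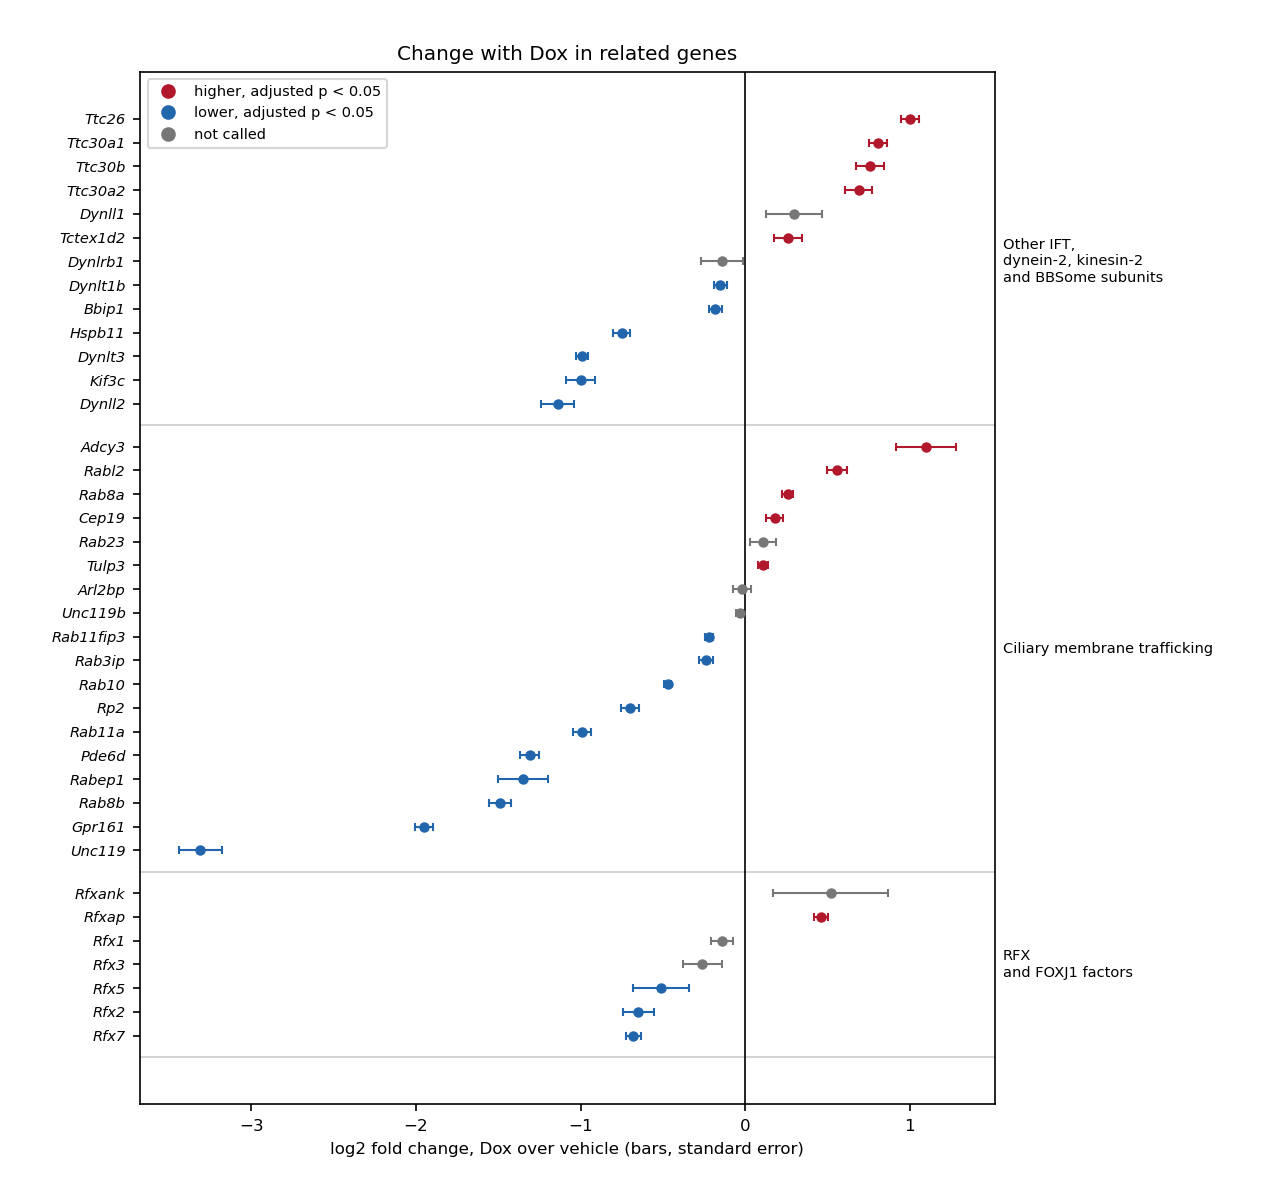
Log2 fold change, Dox over vehicle, with standard errors as bars, for tested genes of the same complexes outside the member list, of ciliary membrane trafficking and of the RFX and FOXJ1 factors, coloured by call at an adjusted p under 0.05. Unc119 lies farthest to the left at -3.31, followed by Gpr161 at -1.95.

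The genes of the RFX factors, whose half-site was searched above, and of FOXJ1, the master regulator of motile cilia, gave 7 tested genes, of which 1 was higher, 3 lower and 3 not called. Rfx7, which shares up to 597 exonic bases with gene models on the opposite strand, had 126, 137 and 136 CPM with vehicle and 83.4, 85.5 and 79.6 CPM with Dox, a log2 fold change of -0.68 ± 0.046 (adjusted p = 3.7e-05). Rfx2, a ciliary RFX factor, had 7.66, 8.57 and 6.81 CPM with vehicle and 4.72, 4.84 and 5.07 CPM with Dox, a log2 fold change of -0.65 ± 0.094 (adjusted p = 0.0012). Rfxap, a partner of RFX5 at MHC class II genes, had 25.4, 25.5 and 23.8 CPM with vehicle and 35, 34.5 and 33.6 CPM with Dox, a log2 fold change of 0.46 ± 0.043 (adjusted p = 0.00016). Rfx5, which shares 1471 exonic bases with B230398E01Rik on the opposite strand, had 7.37, 8.93 and 8.58 CPM with vehicle and 7.05, 4.50 and 6 CPM with Dox (log2 fold change -0.51 ± 0.17, adjusted p = 0.042), and its call was lost without Vehicle 2, Vehicle 3, Dox 2 or Dox 3, with an adjusted p of up to 0.16 over the alternatives.

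Foxj1 did not pass the filter, and of 15 marker genes of multiciliated cells 8 were in the table and 7 of these stayed under 1 CPM in every library. The 8 summed to 5.01 to 6.31 CPM with vehicle and 15.4 to 15.9 CPM with Dox, and Ccdc39, which shares exonic bases with Ttc14, was the only one above 1 CPM. The part of this shift in the members' values was not tested.

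In the authors' deposited table of the comparison, 29 of the 41 members were called, 20 higher and 9 lower, where every called gene had an adjusted p of at most 0.01. Over all genes there, 7703 were called and 19125 had an adjusted p. The sign of the log2 fold change in the authors' deposited table was the same as in the fit above for 41 of 41 members. The 6 members called here and not in the authors' deposited table were Ift122, Ift20, Ift27, Bbs2, Bbs9 and Mkks.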

How the data were processed

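Values came from 6 RNA sequencing libraries. Per the submitters' processing notes, FastQC 0.11.3, HISAT2 2.1.0, StringTie 1.3.3, DESeq2 and the build GRCm38 were used, with no role or order given. For the annotation, the strand setting and multi-mapping reads, the choice made is not given in the sources used here. Whole-number counts per gene symbol were deposited, not normalized. The authors' second table compares the groups and holds, per the file headers, the normalized signal averaged over libraries, log2 fold changes and their errors, a test score, and raw and adjusted p-values.

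The members and gene lists were chosen with earlier results of these data known. The genes named are Klf13, all 41 members and the up to 4 tested genes with the smallest p of each related list. Foxj1, which was not tested, and Unc119b were added after their values were seen. Markers are given as counts and sums. Low counts were removed with filterByExpr, libraries were scaled by TMM, and the groups were compared with edgeR 4.0.16 (limma 3.58.1, R 4.3.3; glmQLFit and glmQLFTest) on 6 libraries without covariates, adjusted over 18067 genes at 0.05. Each standard error is the fold change (log2) divided by the root of F. The fit was tested on simulated counts. No library was a repeat of another, with chi-square values between replicates of 12.1 to 15.1 per degree of freedom. No permutation test was run, since 0.1 is the smallest p that 3 against 3 allows. Of 29493 symbols, 27367 matched 1 gene of GENCODE M21, which may differ from the authors' annotation, and 8 members share at least 50 exonic bases with another gene. Alternatives were other scalings, DESeq2 1.42.0, other filters and thresholds, a replicate block and leaving out each library. Offsets for GC content and length and a count without overlapping genes were chosen after seeing the data.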

Additional observations from a re-analysis of the deposited data

How the results depend on the processing

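Of the 35 called members, 26 kept their call and direction under every alternative that tested them (18 higher and 8 lower). Dync2li1 could not be tested with a filter at 5 CPM. The count without overlapping genes was not applied to single members. The calls lost were of genes with small differences, with adjusted p over the alternatives of 0.036 to 1 for Mkks, 0.021 to 1 for Ift20, 0.015 to 0.82 for Bbs9 and 0.0018 to 0.75 for Ift122. Calls of Bbs2 (adjusted p up to 0.5), Ift46 (up to 0.26), Kif3b (up to 0.28), Kifap3 (up to 0.65) and Ift27 were also lost under some alternative. Leaving out 1 library gave 21 to 22 higher and 10 to 13 lower members. Over all tested genes, leaving out 1 library gave 4146 to 4339 higher and 4841 to 4993 lower.

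Higher and lower members numbered 22 and 10 with DESeq2's Wald test and 19 and 9 at an adjusted p under 0.01. They numbered 18 and 8 with glmTreat against 1.2-fold, and 22 and 11 with no filter. With a GC offset they were 24 and 12, and with a length offset 24 and 11. Without the genes that share exons, 33 members of the same fit remained, of which 17 were higher and 10 lower. The GC and length offsets moved the median of all genes to 0.088 and 0.072. Of 17181 genes tested with them, 5743 were higher and 4468 lower with the GC offset, and 5645 and 4360 with the length offset. Over all tested genes, glmTreat left 2417 higher and 3615 lower, and without overlapping genes 3105 were higher and 3462 lower. IFT-B had 0 lower members with upper-quartile scaling, no filter, a threshold of 0.01, glmTreat, the GC offset and, without 1 library, 0 to 1. The BBSome list had 4 higher and 3 lower with DESeq2's Wald test, at 0.01 and with glmTreat. Under glmTreat the motors had 1 lower. Without overlapping genes, 2 membrane enzymes remained, with 0 higher because Arl6 was taken out, and 4 RFX genes remained, with 1 lower. The other subunits had 3 higher with the filter at 5 CPM. The trafficking list had 3 higher at 0.01 and 2 with glmTreat, and 3 to 5 without 1 library. The RFX list had 2 higher with the GC offset, and 1 to 2 without 1 library.

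Signs turned only for members that were not called in the fit above. Ift52 was at 0.065 with upper-quartile scaling, 0.0085 with the GC offset and 0.03 with the length offset. Ift81 was at -0.0071 without Vehicle replicate 2, ran from -0.024 (without Dox replicate 3) to 0.033 (without Dox replicate 2) when 1 library was left out, and was at -0.0026 with the GC offset. Dync2h1 was at 0.15 with the length offset (adjusted p = 0.024) and Wdr34 at 0.18 with the GC offset (adjusted p = 0.045), and both of these calls are against the sign in the report. The cause was not tested.

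Deviations from the group mean correlated at 0.0693, 0.0523 and -0.0943 between libraries of equal number, over 14635 genes, and the libraries were treated as unpaired. With the replicate number as a block, 22 members were higher and 13 lower, and 4602 of all tested genes were higher and 5097 lower. Among the related genes named, the block ended the call of Rfx5 (adjusted p = 0.087), which was also lost with upper-quartile scaling (0.077), no filter (0.069) and the length offset (0.16).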
